A study of Mus musculus with 6 samples.

Results

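The 9 genes described here are 8 myosin light chain genes (Myl1, Mylpf, Myl2, Myl3, Myl4, Myl6, Myl6b and Myl9) and Mylk2, the light chain kinase of skeletal muscle. They were chosen by symbol from a table of 27131 genes, and each symbol matched 1 row. The table holds estimated counts (fragments assigned to a gene, not scaled to depth) from levator ani/bulbocavernosus muscle, which lies at the base of the penis and grows in response to androgen. There were 3 wild-type mice (WT) and 3 mice labelled 113Q, all on standard chow and taken at 14 weeks of age. The 113Q mice are a knock-in model of the inherited disease SBMA, a wasting of muscle and motor neurons. The strain, the sex and the littermate relations of the mice are not given in the labels.

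Each myosin motor consists of heavy chains, and the neck of each heavy chain binds 1 essential and 1 regulatory light chain. Fast fibres use the essential chain from Myl1 and the regulatory chain from Mylpf, while slow fibres and the heart ventricle use those from Myl3 and Myl2. Myl4 gives the essential chain of embryonic muscle and of the atrium, and Myl6 and Myl9 serve smooth muscle and non-muscle cells. Myl6b serves non-muscle cells and slow muscle. When calcium rises, calmodulin switches on light chain kinases, which phosphorylate a serine near the start of the regulatory chain, and myosin phosphatase removes the phosphate. In skeletal muscle this phosphorylation strengthens the twitch, and in smooth muscle it starts contraction.

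The libraries held between 43581087 and 73873481 estimated counts. Levels are given as CPM, the count in every 1000000 counts of a library after scaling with TMM factors, which set the bulk of genes equal between libraries. The factors ran from 0.768 to 0.794 in WT and from 1.26 to 1.32 in 113Q, so every fold change is relative to the other genes, and a change in total RNA cannot be seen. Scaling by library totals alone moved the median of all genes by 0.72 on the log2 scale. All 8 defining markers of the skeletal myofibre were detected in both groups, and all 8 fell, against 18.1% of all tested genes. Their summed level was 92000 to 105600 CPM in WT against 27350 to 34430 in 113Q. The part of this fall in the light chain results was not tested. Under library totals alone 4 of the 8 were lower and 1 was higher, and Actn2, an actin cross-linker, turned sign. With TMM factors the fall of Actn2 had an edgeR adjusted p above 0.05 without WT mouse 3, 113Q mouse 1 or 113Q mouse 2. In bulk tissue, fewer cells of a type and less RNA per cell cannot be told apart. Epcam, an epithelial marker, was at 1 CPM or more in 3 libraries, those of WT mouse 2 and 113Q mice 2 and 3.

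In 113Q muscle the fast light chains and the slow essential chain Myl3 fell, as did the skeletal kinase. The embryonic essential chain and 3 chains of smooth muscle or non-muscle cells rose, of which Myl6b is also reported from slow muscle. Of the 9 genes, 8 passed the filter on low counts and were tested. Myl1, Mylpf, Myl3 and Mylk2 fell, and Myl4, Myl6, Myl6b and Myl9 rose, at an adjusted p below 0.05 in edgeR's quasi-likelihood test (two-sided, Benjamini-Hochberg over 16960 genes). The groups did not overlap for any of the 8 genes. Among all tested genes 34.6% passed, 16.5% as higher and 18.1% as lower, and the groups did not overlap for 49.9%, of which 25.1% were higher and 24.8% lower as shares of all tested genes. The median log2 fold change was -0.23 over the 8 genes and 0.01 over all tested genes. Together the 9 genes held 2.66% to 2.83% of all estimated counts in WT and 1.04% to 1.12% in 113Q.

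**Figure D1:**
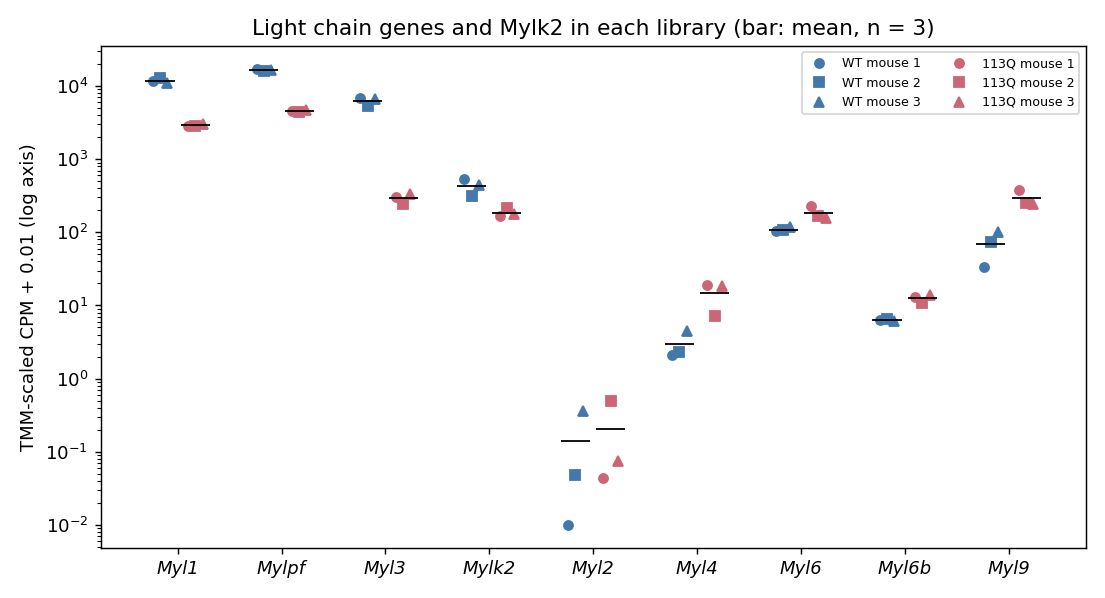
TMM-scaled CPM (plus 0.01, log axis) of the 9 genes in each of the 6 libraries, blue for WT and red for 113Q, with a bar at the mean of 3 mice. Myl1, Mylpf and Myl3 stand above the other genes in WT and lower in 113Q, and Myl2 stays below 0.5 CPM in both groups.

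Mylpf, the fast regulatory light chain, was the most abundant of the 9 genes. On GRCm38 the gene spans chromosome 7 from 127208890 to 127214298, on the plus strand. It was at 17259, 16058 and 16788 CPM in WT mice 1 to 3 and at 4538, 4437 and 4691 CPM in 113Q mice 1 to 3. Each group was narrow, and the lowest WT value stood far above the highest 113Q value. Its log2 fold change was -1.87 ± 0.09 (SE, n = 3 and 3), 3.67 times lower, with an edgeR adjusted p = 9.20e-06. Even so, Mylpf ranked 11 among all 27131 genes by mean CPM in both groups.

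Myl1, the fast essential light chain, fell by nearly the same factor. The gene lies on chromosome 1 at 66924295 to 66945404 on the minus strand, with 5 annotated protein-coding transcripts, and the table gives 1 count for the gene. It was at 11791, 12729 and 10857 CPM in the WT mice against 2876, 2831 and 2983 CPM in 113Q, again with a wide gap between the groups. The groups differed by a log2 fold change of -2.03 ± 0.10 (SE, n = 3 and 3), 4.07 times lower (edgeR adjusted p = 9.70e-06). A ratio of 2 genes within a library does not depend on scaling. The log2 ratio of Mylpf to Myl1 was 0.55, 0.34 and 0.63 in WT and 0.66, 0.65 and 0.65 in 113Q. The groups differed by 0.15 in this ratio (exact permutation test, two-sided, p = 0.1; adjusted p = 0.133 over 8 ratios). With 3 mice against 3 this test cannot go below 0.1, and that holds for each ratio given here.

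Myl3, the essential light chain named for slow fibre and ventricle, fell the furthest of the 9 genes. Its position is chromosome 9 at 110741861 to 110769798 on the plus strand. It was at 6768, 5299 and 6606 CPM in the WT mice against 299.6, 242.4 and 334.2 CPM in 113Q. The log2 fold change was -4.41 ± 0.17 (SE, n = 3 and 3), 21.3 times lower (edgeR adjusted p = 3.80e-06). Its rank by mean CPM among all genes went from 26 in WT to 342 in 113Q. Exons of Myl3 share 95 bases with exons of Pth1r, a hormone receptor gene on the other strand, and whether the counting used strand is not stated. Pth1r was at 6.83 ± 0.65 CPM in the WT mice against 10.3 ± 0.80 CPM in 113Q (SD, n = 3 each), both far below Myl3.

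The fold change of Myl3 exceeded that of Myl1. The log2 ratio of Myl3 to Myl1 was -0.80, -1.26 and -0.72 in WT and -3.26, -3.55 and -3.16 in 113Q. The difference of -2.39 far exceeded the SD of 0.29 and 0.20 within the groups (exact permutation test, two-sided, p = 0.1; adjusted p = 0.133 over 8 ratios).

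Myl2, the regulatory light chain that partners Myl3 in slow fibres and ventricle, was nearly absent from both groups. It lies on chromosome 5 at 122100951 to 122113472 on the plus strand, and its exons share 60 bases with Ccdc63 on the other strand. It had 0, 2 and 18 estimated counts in WT and 3, 43 and 6 in 113Q, all below 0.5 CPM. It did not pass the filter on low counts and was not tested, and the groups overlap. Most of these counts came from WT mouse 3 and 113Q mouse 2. Myh7, the slow heavy chain, chosen after its values were seen, was low as well, at 1.15, 1.13 and 1.44 CPM in the WT mice against 0.179, 1.67 and 0.654 CPM in 113Q, and did not pass (edgeR adjusted p = 0.559). The slow essential chain was thus abundant in WT muscle in which the slow regulatory chain and the slow heavy chain were barely detected.

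Promoter sequences are shown for Mylpf, Myl3 and Myl9 because they hold motifs of muscle transcription factors. They come from the RefSeq promoter table on GRCm38.p6, and each gives 150 bases upstream of the RefSeq start. Each stretch ends before the first annotated exon base of the gene in its window, so only that of Mylpf reaches the RefSeq start. The GENCODE spans of Mylpf and Myl3 begin further upstream, so these stretches lie inside them, and that of Myl9 ends where its gene begins. Of the 9 genes, 8 matched that table. Capitals mark an E-box (CANNTG, the site of myogenic bHLH factors) in Mylpf and a CArG box (the site of serum response factor) in Myl3 and Myl9, searched on both strands. No match to the MEF2 site lies in the windows of the 8 genes.
Mylpf, chr7:127211458-127211607, plus strand: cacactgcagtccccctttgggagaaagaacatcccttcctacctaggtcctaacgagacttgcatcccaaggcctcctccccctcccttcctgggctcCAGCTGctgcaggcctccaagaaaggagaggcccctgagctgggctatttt
Myl3, chr9:110763496-110763645, plus strand: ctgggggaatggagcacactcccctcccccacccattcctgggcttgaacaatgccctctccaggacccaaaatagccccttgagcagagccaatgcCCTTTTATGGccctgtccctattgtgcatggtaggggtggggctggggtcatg
Myl9, chr2:156775270-156775419, plus strand: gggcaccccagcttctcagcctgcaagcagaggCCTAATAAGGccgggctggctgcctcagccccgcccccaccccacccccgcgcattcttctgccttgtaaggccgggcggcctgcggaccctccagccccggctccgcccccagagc
In the 250 bases before the start, an E-box is present in 66.2% of 32851 promoters of the mouse genome, a MEF2 match in 2.92% and a CArG box in 1.47%. A CArG box was found for Myl3, Myl9 and 1 of the 2 windows of Myl6, so it occurred in a gene that fell and in genes that rose. An E-box was found for Myl1, Myl2, Mylpf, Myl3, Myl6b and 1 of the 2 windows of Myl6, but not for Myl9 or Myl4. It too occurred in genes that fell and in genes that rose. The E-box of Myl3 lies outside the printed stretch. A match describes letters, not binding.

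Myl4, the essential chain of embryonic muscle and atrium, rose from a low level. The gene lies on chromosome 11 at 104550663 to 104595753 on the plus strand. It was at 2.07, 2.26 and 4.52 CPM in the WT mice against 19.2, 7.18 and 18.3 CPM in 113Q. All 113Q values lie above all WT values, and 113Q mouse 2 stands well below the other two. Its log2 fold change was 2.33 ± 0.50 (SE, n = 3 and 3), 5.02 times higher (edgeR adjusted p = 0.0146). The call was lost without WT mouse 1 (edgeR adjusted p = 0.0588) or WT mouse 2 (0.0633), and over 19 other settings the adjusted p ran from 2.29e-08 to 0.285. Of 7 cardiac markers 4 were at or near 0 in every library: Myl7, the atrial regulatory chain, reached at most 0.0536 CPM, Nppa 0.0577 CPM, Myh6 0.0781 CPM and Mybpc3 0.0214 CPM. Ryr2, a calcium release channel of the heart, was at 0.0592, 1.02 and 1.10 CPM in the WT mice against 5.87, 3.39 and 1.59 CPM in 113Q, without overlap, and did not pass (log2 fold change 2.28, edgeR adjusted p = 0.11). Its part in the Myl4 result was not tested. The summed level of the 7 cardiac markers, to which Tnnt2 gave the most in every library, was 8.62 to 12.2 CPM in WT against 7.30 to 16.1 in 113Q.

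Other developmental myosins went the other way. Myh8, the perinatal heavy chain, fell from 37337 ± 2116 to 15317 ± 1338 CPM (SD, n = 3 each), and Myh3, the embryonic heavy chain, chosen after its values were seen, was at 2.28 ± 1.58 and 0.636 ± 0.205 CPM (edgeR adjusted p = 0.023, but 0.0591 without WT mouse 2, 0.0862 without 113Q mouse 2 and 0.083 without 113Q mouse 3). Of the 5 satellite cell markers, which label muscle stem cells, 4 rose, against 16.5% of all tested genes. The summed level of the 5 was 32.2 to 33.7 CPM in the WT mice against 64.8 to 76.2 CPM in 113Q. The call of Calcr, a marker chosen after its values were seen, was lost without WT mouse 3 (edgeR adjusted p = 0.0637) or 113Q mouse 1 (0.0641). Myf5, a myogenic transcription factor, had a log2 fold change of 2.18, and Sdc4, a proteoglycan, 1.19. The part of these cells in the Myl4 result was not tested.

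Myl6, the essential light chain of smooth muscle and non-muscle cells, rose in 113Q. Its position is chromosome 10 at 128490860 to 128494145 on the minus strand, beside Myl6b at 128494157 to 128498685. Myl6 was at 104.0, 107.1 and 116.6 CPM in the WT mice against 229.7, 167.2 and 156.1 CPM in 113Q, with 113Q mouse 1 the highest. The groups differed by a log2 fold change of 0.75 ± 0.15 (SE, n = 3 and 3), 1.69 times higher (edgeR adjusted p = 0.00526). Myl6b, a close relative also reported from slow muscle, was at 6.25, 6.44 and 6.10 CPM in the WT mice against 12.9, 10.96 and 14.1 CPM in 113Q. Its log2 fold change was 1.01 ± 0.13 (SE, n = 3 and 3), 2.02 times higher (edgeR adjusted p = 0.000758). Their coding sequences are 81.1% identical over the aligned bases, and no annotated exon of one overlaps the other. The log2 ratio of Myl6b to Myl6 overlapped between the groups, at -4.12 ± 0.12 in WT and -3.85 ± 0.35 in 113Q (SD, n = 3 each; exact permutation test, two-sided, p = 0.3).

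Myl9, the smooth muscle regulatory light chain, rose in 113Q. It lies on chromosome 2 at 156775420 to 156781658 on the plus strand. It was at 34.0, 73.4 and 100.2 CPM in the WT mice against 375.3, 255.5 and 245.7 CPM in 113Q. WT mouse 1 was the lowest and 113Q mouse 1 the highest. The log2 fold change was 2.08 ± 0.44 (SE, n = 3 and 3), 4.22 times higher (edgeR adjusted p = 0.0185). The call was lost without WT mouse 2 (edgeR adjusted p = 0.0696) or 113Q mouse 2 (0.0524), and the adjusted p ran from 2.81e-05 to 0.386 over 19 other settings. The log2 ratio of Myl9 to Myl6 was -1.61, -0.54 and -0.22 in WT and 0.71, 0.61 and 0.65 in 113Q (exact permutation test, two-sided, p = 0.1; adjusted p = 0.133 over 8 ratios).

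Of 8 smooth muscle markers 5 had no overlap between the groups, against 49.9% of all tested genes, and 1 passed in edgeR, against 34.6%. The summed level of the 8 markers was 366.1 to 822.7 CPM in the WT mice against 1323 to 2842 CPM in 113Q, and none was at 0 in any library. The one that passed was Acta2, smooth muscle actin, at 46.4, 126.5 and 184.2 CPM in the WT mice against 866.7, 566.3 and 425.4 CPM in 113Q (edgeR adjusted p = 0.037, lost without WT mouse 2 at 0.113 and without 113Q mice 1, 2 and 3 at 0.0845, 0.095 and 0.0619), while 4 of 8 passed in DESeq2 and 4 in voom, and 4 had an unadjusted edgeR p below 0.05. Tagln, an actin-binding protein, was at 92.1 ± 51.9 CPM in the WT mice against 297.0 ± 129.9 CPM in 113Q (SD, n = 3 each; edgeR adjusted p = 0.0826). Smtn, the cytoskeletal protein smoothelin, chosen after its values were seen, was at 215.2 ± 15.2 and 216.9 ± 5.72 CPM. Lmod1 and Myocd, also chosen after their values were seen, overlapped between the groups. Lmod1 had a log2 fold change of 0.66 (edgeR adjusted p = 0.316). Myocd went the other way, at -0.77 (edgeR adjusted p = 0.226). Per count of Acta2 there were 0.733, 0.581 and 0.544 counts of Myl9 in WT and 0.433, 0.451 and 0.578 in 113Q, and these values overlap. The part of smooth muscle RNA in the Myl9 result was not tested.

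**Figure D2:**
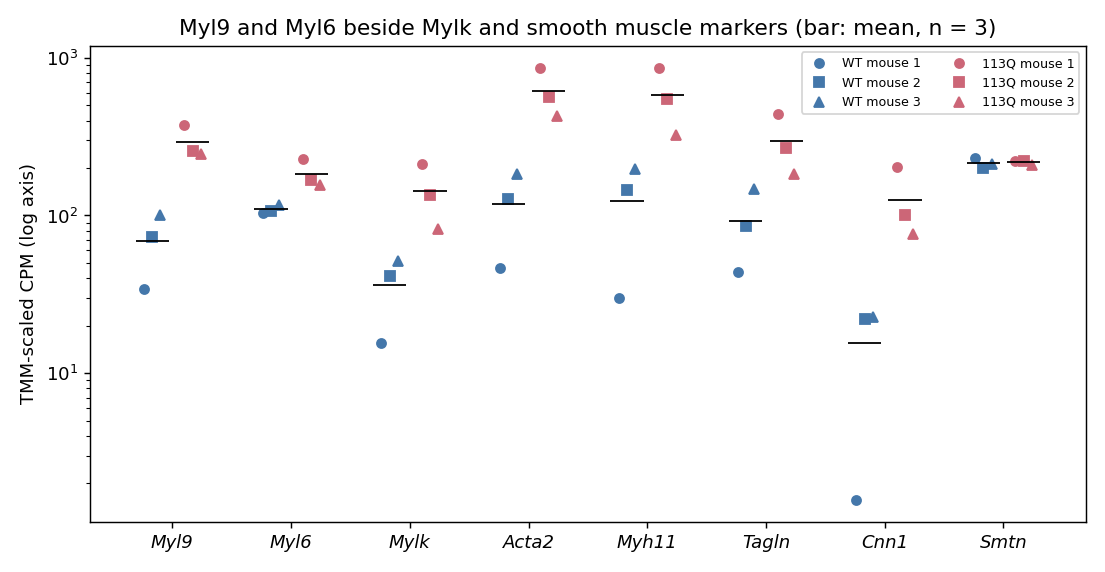
TMM-scaled CPM (log axis) of Myl9, Myl6, the smooth muscle kinase Mylk and 5 smooth muscle markers in each library, with a bar at the mean of 3 mice. Myl9 follows Mylk and Acta2 across the libraries, lowest in WT mouse 1 and highest in 113Q mouse 1, while Smtn stays near 215 CPM.

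The make-up of each light chain pool was compared as counts per kilobase of the principal transcript within a library, a share that needs no scaling. For Myl1 that transcript, of 803 bases, is 1 of 5 annotated protein-coding ones, and the count is for the gene as a whole. Of the essential pool, Myl1 held 68.3% ± 4.27 in WT and 85.4% ± 1.66 in 113Q (SD, n = 3 each). Myl3 held 30.9% ± 4.23 in WT and 7.36% ± 0.92 in 113Q. Myl6 went from 0.766% ± 0.071 to 6.56% ± 1.37 and Myl4 from 0.0158% ± 0.0078 to 0.398% ± 0.171. Of the regulatory pool, which also takes in the non-muscle chains Myl12a and Myl12b, Mylpf held 99.4% ± 0.12 in WT and 94.3% ± 0.94 in 113Q. Myl9 held 0.282% ± 0.137 of it in WT and 4.11% ± 0.99 in 113Q. For each of these 6 genes the shares of the groups did not overlap. Mylpf thus remained the main regulatory chain, and Myl1 held a larger share of the essential pool. A share also moves with the other genes of its pool, and in bulk tissue a pool joins chains of different cell types. In CPM Myl6 was 1.69 times higher in 113Q and Myl9 4.22 times higher.

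**Figure D3:**
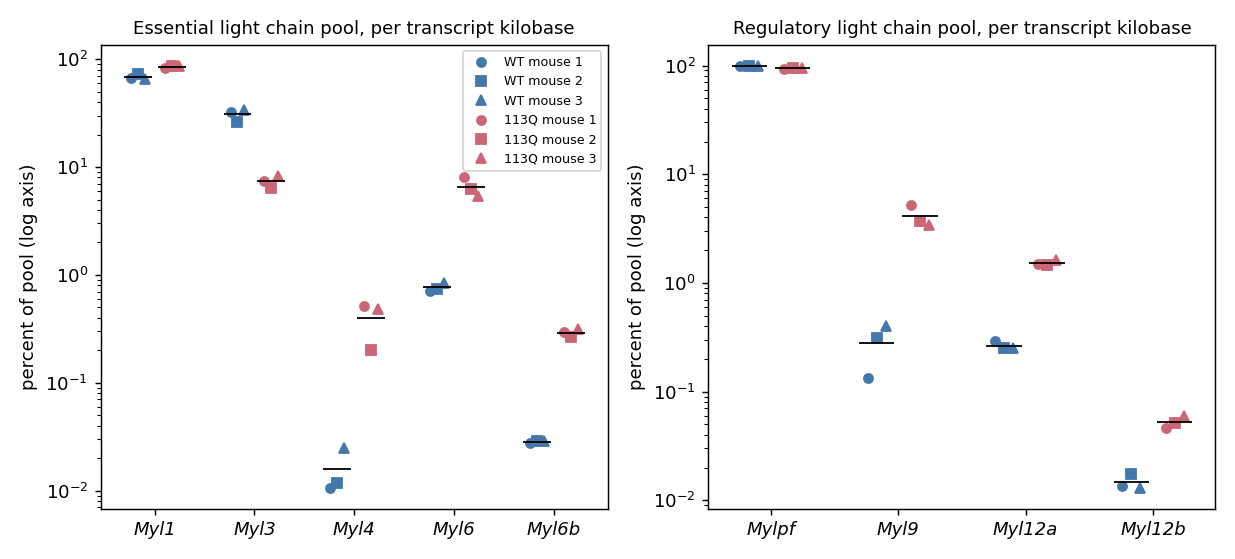
Percent of the essential pool (left) and of the regulatory pool (right) held by each gene, from counts per transcript kilobase on a log axis, with a point per library and a bar at the mean of 3 mice. Myl3 drops from about 30.9% to 7.36% of the essential pool, and Myl9 climbs from 0.282% to 4.11% of the regulatory pool; Myl2, below 0.02% in every library, is not drawn.

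Mylk2 encodes the calmodulin-dependent kinase that phosphorylates the regulatory light chain of skeletal muscle. The gene lies on chromosome 2 at 152911352 to 152923068 on the plus strand. It was at 532.0, 311.4 and 446.7 CPM in the WT mice against 167.8, 213.3 and 178.4 CPM in 113Q, without overlap. Its log2 fold change was -1.21 ± 0.20 (SE, n = 3 and 3), 2.31 times lower (edgeR adjusted p = 0.00358). With library totals alone it was -0.49 (edgeR adjusted p = 0.0585), the sole one of 19 other settings in which Mylk2 lost its call, with adjusted p from 6.55e-10 to 0.0585. The fold change of Mylk2 was smaller than that of its substrate, and the log2 ratio of Mylk2 to Mylpf was -5.02, -5.69 and -5.23 in WT and -4.76, -4.38 and -4.72 in 113Q (exact permutation test, two-sided, p = 0.1; adjusted p = 0.133 over 8 ratios).

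Light chain kinases act on a serine near the start of each regulatory chain. The coding stretch around that serine, from GENCODE M21 on GRCm38, is shown with the serine codon in capitals. It was chosen because it differs between Mylpf, which fell, and Myl9 and Myl12a, which rose.
Mylpf, coding bases 22 to 63: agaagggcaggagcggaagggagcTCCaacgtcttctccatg
Myl2, coding bases 19 to 60: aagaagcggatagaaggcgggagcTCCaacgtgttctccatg
Myl9, coding bases 34 to 75: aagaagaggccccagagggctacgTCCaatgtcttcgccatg
Myl12a, coding bases 34 to 75: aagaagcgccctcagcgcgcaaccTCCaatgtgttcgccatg
All 4 use the codon TCC at this serine, which is codon 16 in Mylpf, 15 in Myl2 and 20 in Myl9 and Myl12a, counting the start codon as 1. Over these 42 bases Mylpf shares 29 with Myl2 and 22 with Myl9, and Myl9 shares 34 with Myl12a. Over the 484 aligned bases of their coding sequences Mylpf is 70.7% identical to Myl9. Myl1 is 75.8% identical to Myl3 over 447 aligned bases. The principal transcripts used have coding sequences of 450 bases for Myl1 and 612 for Myl3, and other transcripts were not compared.

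Of 17 other genes of light chain phosphorylation, 5 rose, 6 fell and 6 did not pass, with a median log2 fold change of -0.17. Among all tested genes 16.5% rose and 18.1% fell. Mylk4, a kinase of the same family, was at 1176, 1873 and 1516 CPM in the WT mice against 247.6, 252.0 and 276.6 CPM in 113Q, and fell by 2.56 on the log2 scale (edgeR adjusted p = 3.95e-05). Mylk, the smooth muscle light chain kinase, chosen after its values were seen, was higher in each 113Q mouse than in any WT mouse, at 15.5, 41.5 and 51.4 CPM in the WT mice against 211.3, 134.2 and 81.9 CPM in 113Q. Its log2 fold change of 1.97 ± 0.60 did not pass in edgeR (adjusted p = 0.062). Rock2, a kinase that inhibits myosin phosphatase, rose by 0.64 on the log2 scale (edgeR adjusted p = 0.00132).

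On the phosphatase side, Ppp1r14c, an inhibitor subunit, was at 164.9 ± 5.60 CPM in the WT mice against 77.6 ± 5.74 CPM in 113Q (SD, n = 3 each; edgeR adjusted p = 6.09e-05). The targeting subunits of myosin phosphatase split. Ppp1r12a, the form of smooth muscle and many other cells, had a log2 fold change of 0.82 (edgeR adjusted p = 0.00348), and Ppp1r12b, the form of striated muscle, -0.81 (0.00206); both were chosen after their values were seen. Of the 3 calmodulin genes only Calm2 passed, at -0.72 (edgeR adjusted p = 0.000361). Under library totals alone Calm2 turned to 0.01 and lost its call, Ppp1r12b lost its call at -0.09, and 11 genes of the list were higher and 2 lower.

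**Figure D4:**
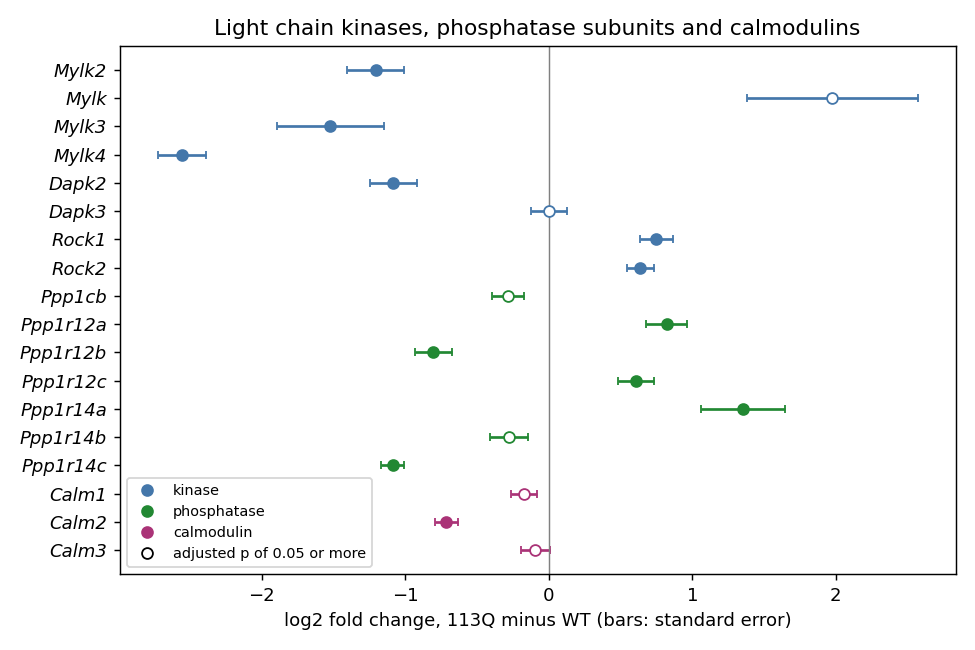
Log2 fold change (113Q minus WT, TMM scaling) with its standard error for Mylk2 and 17 other genes of light chain phosphorylation, coloured by role and filled where the edgeR adjusted p is below 0.05. The skeletal kinases Mylk2 and Mylk4 lie at -1.21 and -2.56, and the smooth muscle kinase Mylk at 1.97.

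The other light chain genes were low or near the non-muscle members. Myl12a, a non-muscle regulatory chain, rose from 56.8 ± 6.93 to 94.5 ± 8.44 CPM (SD, n = 3 each; edgeR adjusted p = 0.0014), and Myl12b, at 6.87 ± 0.87 and 7.07 ± 0.98 CPM, did not pass (0.874). Their coding sequences are 96.5% identical, so the division of reads between them is uncertain. Myl10 did not exceed 0.077 CPM in any library and was not tested, like Myl7.

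Of 11 heavy chain genes tested, 6 fell, against 18.1% of all tested genes, and 5 did not pass. The median log2 fold change of the 11 was -1.22. None of the 11 rose in edgeR, against 1 in DESeq2 and 1 in voom, with 8 of the 11 at an unadjusted p below 0.05. The median gene was Myh4, a fast heavy chain chosen after its values were seen (edgeR adjusted p = 0.0404). Its call was lost without WT mouse 1 (0.119), WT mouse 2 (0.0789), WT mouse 3 (0.0882) or 113Q mouse 3 (0.126). Myh1, the fast type 2X heavy chain, had a log2 fold change of -4.55, close to that of Myl3, and Myh2, the type 2A form, -3.07. Myh13, the form of extraocular muscle, had -2.08. Under library totals alone 3 heavy chain genes rose and 4 fell. Of 6 thick filament accessory genes 4 fell and 1 rose, against 18.1% and 16.5% of all tested genes, with a median of -0.69. Under library totals alone 2 of the 6 rose and 2 fell. Mybpc2, the fast myosin-binding protein C, had a log2 fold change of -2.66, and Mybpc1, the slow form, -0.79, which was -0.08 under library totals alone (edgeR adjusted p = 0.601). Myom2, an M-band protein chosen after its values were seen, had a log2 fold change of -0.43, which turned to 0.29 under those totals (edgeR adjusted p = 0.0182). Myom1, which links thick filaments at the M-band, had -1.19, while its relative Myom3 rose from 106.0 ± 32.6 to 549.2 ± 29.5 CPM (SD, n = 3 each; edgeR adjusted p = 0.000542).

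All 5 genes of myosin folding passed, against 34.6% of all tested genes, 3 higher and 2 lower, with a median of 0.44. The folding factors of striated muscle, Unc45b and the methyltransferase Smyd1, had log2 fold changes of -0.60 and -0.83, and the chaperones Hsp90aa1 and Hsp90ab1 0.91 and 0.56. With library totals alone Unc45b was at 0.12 and Smyd1 at -0.11, and neither passed.

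Markers of other cell types in the muscle differed in direction, while among all tested genes 16.5% rose and 18.1% fell. All 6 endothelial markers fell, by a median of 0.73 on the log2 scale (-0.01 with library totals alone, where 5 lost the call and Tie1, Tek and Emcn turned sign), with the vessel adhesion molecule Pecam1 at -0.80. When 1 mouse was left out, Tek lost its call without WT mouse 2, WT mouse 3, 113Q mouse 2 or 113Q mouse 3. Kdr, chosen after its values were seen, lost its call without WT mouse 1 or 113Q mouse 1. Of 5 pericyte markers 1 rose, Abcc9, a potassium channel regulator, at 0.38. In edgeR 0 of 6 fibroblast, 0 of 4 macrophage, 0 of 7 epithelial and 0 of 3 tested cardiac markers passed. At an unadjusted p below 0.05 there were 2 fibroblast, 0 macrophage, 0 epithelial and 1 cardiac. DESeq2 called 2 fibroblast markers and 0 of the others, and voom 0 of all of them.

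Direction held for all 8 tested genes under each scaling. With library totals alone the log2 fold changes were -3.69 for Myl3, -1.30 for Myl1, -1.15 for Mylpf and -0.49 for Mylk2, and 1.48 for Myl6, 1.73 for Myl6b, 2.80 for Myl9 and 3.04 for Myl4. The 3 sarcomeric light chains Myl1, Mylpf and Myl3 kept their calls in all 19 other settings, with adjusted p of at most 0.000791. In the 3 libraries with Epcam below 1 CPM, of which 1 is 113Q, log2 fold changes were -1.98 for Myl1, -1.91 for Mylpf, -4.48 for Myl3, -1.54 for Mylk2, 2.52 for Myl4, 1.06 for Myl6, 1.06 for Myl6b and 2.48 for Myl9. In the other 3, of which 1 is WT, they were -2.14, -1.82, -4.21, -0.67, 2.49, 0.59, 0.95 and 1.77 in the same order.

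**Figure D5:**
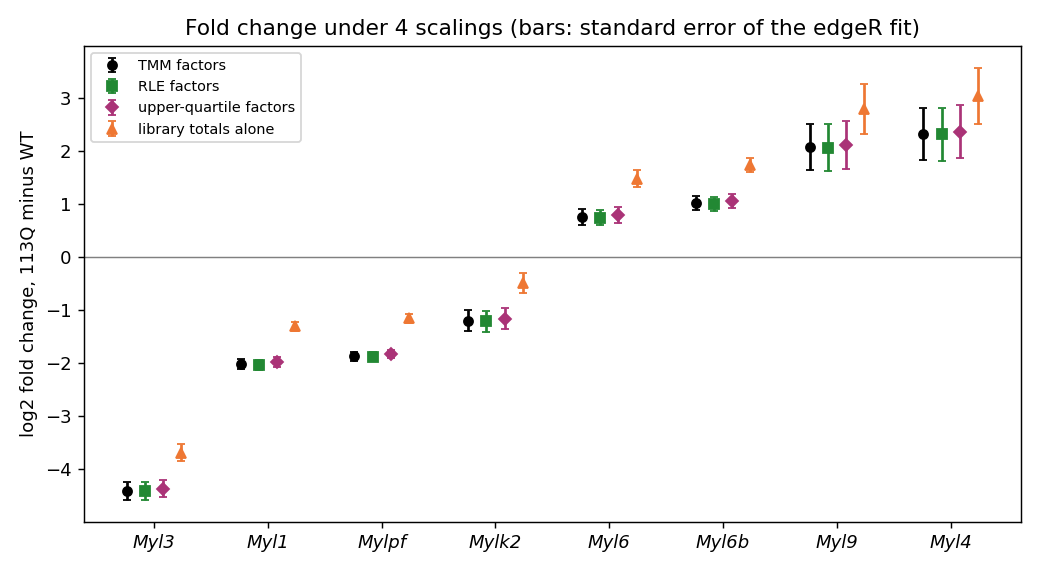
Log2 fold change (113Q minus WT) of the 8 tested genes with the standard error of the edgeR fit, under TMM, RLE and upper-quartile factors and under library totals alone. Library totals alone shift each value up by about 0.72, and no gene crosses 0.

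The 5 genes with profiles most like that of Myl1 over the 6 libraries were Pfkfb1, Hk2, Slc2a4, Eno3 and Ptpn3. Likeness was the root mean square distance between log2(CPM + 0.5) profiles, each centred on its mean, among 9504 genes of at least 5 CPM, and it ran from 0.073 for Pfkfb1 to 0.115 for Ptpn3. Hk2 starts glycolysis, Eno3 is the muscle enolase, Slc2a4 the insulin-responsive glucose transporter and Pfkfb1 an enzyme that sets the level of a glycolysis regulator. For Myl3 the nearest were Fscn2, Fam57b, Fam19a3, Myh1 and Gna14, at distances of 0.181 to 0.344. The added 0.5 CPM flattens low values: Fscn2 went from 11.7 ± 2.92 to 0.0946 ± 0.0598 CPM (SD, n = 3 each), a log2 fold change of -6.92 against -4.41 for Myl3. Myh1 was the one sarcomeric gene among them. For Mylk2 they were Art5, Eepd1, Ggnbp1, Lin28a and Pfas, at 0.074 to 0.129. These distances describe 2 groups of 3 libraries that share their scaling.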

How the data were processed

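Estimated counts per gene were deposited by the authors, made with Cuffdiff 2.1.1 on mm10; the submitters' processing notes also name Bowtie2 2.1.0, TopHat2 2.0.9, Cufflinks, cutadapt and FastQC 0.10.0. Annotation and strandedness of the counting: not given in the sources used here. Per the labels' protocols, Trizol RNA went into a TruSeq mRNA library kit. Between 5.38% and 5.96% of values were fractional and were rounded for tests. Counts (43581087 to 73873481 per library; 1 count is 0.0107 to 0.0296 CPM, counting error only) were compared with edgeR 4.0.16 in R 4.3.3 (filterByExpr, minimum count 10; TMM; robust), with DESeq2 1.42.0 and limma 3.58.1 as alternatives. SE is the log2 fold change over the root of F. The common biological coefficient of variation was 24.2%. Ratios used unrounded counts plus 0.5. Lengths, positions and overlaps come from GENCODE M21, using the principal transcript. Labels name separate mice and no batch. The named genes are the members, up to 4 genes per pathway list and 2 per marker list with the smallest p, and the nearest profiles; 1 other gene of the rule is not reported here. Actn2, Epcam, Pth1r, Tek, Emcn, Myl7, Myl10, Nppa, Myh6 and Mybpc3 fall outside this rule and were chosen after their values were seen, as were those so described in the text. Members and lists were chosen with earlier results of these data known. Scripts were tested on simulated data.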

Additional observations from a re-analysis of the deposited data

How the results depend on the processing

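Over all genes, 2791 were higher and 3078 lower in 113Q. Library totals alone gave 11015 higher and 710 lower (93.9% of calls higher against 47.6%), and with the libraries of Epcam below 1 CPM, where 113Q is 1 mouse assumed to vary like WT, 1300 were higher and 1827 lower. Leaving out 1 mouse gave 2004 to 2559 higher and 2312 to 2843 lower, with 2 to 4 light chain genes higher and 4 of Myl1, Mylpf, Myl3 and Mylk2 lower. The lowest was without WT mouse 2, where Myl4 and Myl9 lost their calls. In single-mouse fits Myl9 had 2.48 (adjusted p = 0.386; Epcam below 1 CPM) and Myl4 2.49 (0.285; Epcam of at least 1 CPM, where WT is 1 mouse). Myl1, Mylpf, Myl3, Myl6 and Myl6b kept their calls in all 19 settings, and no direction turned. Same-numbered mice correlated in their deviations at 0.12, 0.16 and -0.29, and differently numbered mice at -0.35 to 0.33. Deviations from a mean of 3 libraries are tied together within a group, so these values cannot show whether numbers paired mice. The labels give only a shared number. With the replicate block 2154 genes were higher and 2583 lower; Myl9 lost its call at 2.16 (adjusted p = 0.0661), while the other 7 tested genes kept theirs. The 8 log2 ratios kept their sign in every setting; without 1 mouse Myl3 to Myl1 ran from -2.56 to -2.28, Mylpf to Myl1 from 0.06 to 0.21, Myl9 to Myl6 from 1.04 to 1.74 and Mylk2 to Mylpf from 0.51 to 0.84. With a pseudocount of 0 the ratios with Myl2 have no value, since Myl2 had 0 counts in WT mouse 1. Causes were not tested.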

Other observations

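Counts of the sarcomeric light chains Myl1, Myl3 and Mylpf were set beside counts of 6 skeletal heavy chains (Myh1, Myh2, Myh3, Myh4, Myh8 and Myh13), a sum chosen after the values were seen. Per 100 heavy chain counts there were 49.0, 38.6 and 41.3 light chain counts in WT and 41.3, 36.2 and 37.5 in 113Q. The groups overlap, and WT mouse 1 stands above the other libraries. Myl4 against Myl1 had a log2 ratio of -12.46, -12.45 and -11.23 in WT and -7.22, -8.62 and -7.35 in 113Q (exact permutation test, two-sided, p = 0.1; adjusted p = 0.133 over 8 ratios). Both ratios with Myl2 rest on few counts: to Mylpf it was -18.0 ± 2.33 in WT and -15.3 ± 1.93 in 113Q, and to Myl3 -16.6 ± 2.32 and -11.4 ± 2.11 (SD, n = 3 each).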
